A study of Mus musculus with 13 samples.

Results

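The lysosomal enzymes, cathepsins and proton pump are followed here through 50 genes of the mouse lung, which were picked by symbol from the 20270 protein-coding genes of the expression tables. They comprise 13 proteases (11 cathepsins, the tripeptidyl peptidase Tpp1 and legumain), 13 glycosidases and sulfatases with the activator Gm2a, 7 lipid enzymes and lipid carriers, 2 acid phosphatases, 7 membrane proteins, 7 parts of the vacuolar proton pump, and the transcription factor Tfeb. All 50 were found in the tables and all 50 passed the filter on low counts that left 15315 genes for testing.

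Lung RNA was measured in 13 samples. Bleomycin, a DNA-damaging drug that injures the airway lining, was given once by oropharyngeal aspiration at 1 U/kg as a model of pulmonary fibrosis (PF). The groups were 4 wild-type controls without bleomycin, 5 wild-type lungs 14 days after bleomycin (WT bleomycin), and 4 lungs of Cnr1-/- mice (CB1R KO), a constitutive knockout of the cannabinoid receptor CB1R that is not restricted to a cell type, 14 days after the same dose. The study gave its control groups sterile saline, the vehicle. The wild-type mice were male C57BL/6J obtained at 13 weeks of age, and the knockout was on the C57BL/6J background. The age of the knockout mice is not given in the sources used here, and the study's description of them states no sex. No CB1R KO lung free of bleomycin was among the samples used here, so the knockout could be compared only in bleomycin-treated lungs. RNA came from the lower right lobe, a mixture of all its cells, and in such bulk samples fewer cells of a type and less RNA per cell cannot be told apart. Of the 13 libraries, 12 held 14615904 to 16662580 estimated counts, and CB1R KO replicate 11 held 53463884. Cnr1, the deleted gene, was at 27.0 to 69.0 estimated counts in control, 50.0 to 110 in WT bleomycin and 41.0 to 188 in CB1R KO libraries, and did not differ between the bleomycin groups at the threshold (log2 fold change -0.53 ± 0.28, edgeR adjusted p = 0.367), so these counts do not check the genotype labels. WT replicates 4 and 4-B2 share a number, and whether they came from the same mouse is not given in the sources used here; p-values measure the spread between these samples.

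Lysosomes are acidic organelles that break down protein, glycan and lipid taken up by endocytosis and phagocytosis or delivered by autophagy. The vacuolar ATPase pumps protons across their membrane, and the acid pH activates the cathepsins and the other hydrolases. Macrophages of the lung are rich in lysosomes and in cathepsins, which they can also secrete, and type II alveolar cells keep related organelles, the lamellar bodies, in which surfactant is stored. The transcription factors of the TFEB family bind E-box sequences before many lysosomal genes.

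Promoter windows, from 250 bases before to 50 bases after a RefSeq start, were at hand for 43 of the 50 genes (52 windows, mouse build GRCm38.p6). Atp6v0d2, Asah1, Npc1, Atp6v1h, Ctsh, Atp6v1b2 and Ctsb had no window. The stretches below are shown because they hold motifs that occurred among the genes described next. Capitals mark every match to the motif named, on either strand, and positions count back from -1, the last base before the start. The Lamp1 and Mcoln1 stretches hold more than 1 E-box CACGTG, and those of Ctsd, Lgmn and Ctsa hold 1 each. Lgmn has another RefSeq start, whose window (chr12:102439679-102439978) holds GC boxes and no E-box.
Lamp1, chr8:13159091-13159160, plus strand, -70 to -1: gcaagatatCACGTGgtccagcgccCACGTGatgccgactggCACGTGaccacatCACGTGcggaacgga
Mcoln1, chr8:3500419-3500518, plus strand, -100 to -1: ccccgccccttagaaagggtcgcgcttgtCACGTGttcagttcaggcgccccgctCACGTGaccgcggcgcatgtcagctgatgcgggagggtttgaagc
Ctsd, chr7:142387898-142387957, minus strand, -130 to -71: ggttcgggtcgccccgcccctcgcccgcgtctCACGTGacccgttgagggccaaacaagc
Lgmn, chr12:102439113-102439172, minus strand, -80 to -21: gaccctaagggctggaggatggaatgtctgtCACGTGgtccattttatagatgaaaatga
Ctsa, chr2:164833713-164833772, plus strand, -60 to -1: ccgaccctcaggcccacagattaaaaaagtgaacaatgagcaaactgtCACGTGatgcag

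The stretches of Psap and Cd68 hold the AP-1 motif TGACTCA, which appears on the other strand as TGAGTCA, and the stretch of Ctsc holds GAGGAAGT, a sequence bound by the myeloid factor PU.1, on the other strand as ACTTCCTC.
Psap, chr10:60277568-60277627, plus strand, -60 to -1: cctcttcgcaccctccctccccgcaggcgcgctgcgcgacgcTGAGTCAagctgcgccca
Cd68, chr11:69666171-69666230, minus strand, -60 to -1: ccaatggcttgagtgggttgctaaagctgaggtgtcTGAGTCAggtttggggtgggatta
Ctsc, chr7:88277905-88277965, plus strand, -180 to -120: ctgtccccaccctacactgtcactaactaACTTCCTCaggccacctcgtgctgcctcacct

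The E-box CACGTG lay in 28.8% of the 52 windows and in 7.15% of all 32851 RefSeq windows of that length. The longer TCACGTGA, which contains it, lay in 13.5% and 0.974%. GAGGAAGT lay in 7.69% (Ctsc, Ctss, Gla and Gusb) and 3.20%, and TGACTCA in 7.69% (Cd68, Glb1, Neu1 and Psap) and 5.20%. The GC box GGGCGG lay in 69.2% and 35.7%. All were searched on both strands, and a match describes the letters only, without showing that a factor binds there.

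In control lungs the 50 genes together took 0.885% ± 0.0589 (SD, n = 4) of the estimated counts, with libraries from 0.844% to 0.971%. In WT bleomycin lungs they took 1.55% ± 0.0841 (n = 5; 1.45% to 1.67%) and in CB1R KO bleomycin lungs 1.57% ± 0.0666 (n = 4; 1.47% to 1.62%). Every bleomycin library was above every control library, and the bleomycin groups overlapped. On the TPM scale, a transcript abundance relative to the library's total that corrects for transcript length and allows genes to be compared with each other, the summed level was 1.92-fold higher in WT bleomycin than in control, 1.98-fold higher in CB1R KO bleomycin than in control, and 1.03-fold higher in CB1R KO than in WT bleomycin.

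The proteases made up most of that gain. Their share of the summed TPM was 37.4% ± 0.851 in control, 50.8% ± 0.406 in WT bleomycin and 50.4% ± 0.883 in CB1R KO bleomycin lungs (SD, n = 4, 5 and 4). The share of the lysosomal membrane proteins was 18.2% ± 0.744, 12.2% ± 0.355 and 11.9% ± 0.704 in the same order, and that of the proton pump 9.54% ± 0.451, 5.98% ± 0.132 and 6.10% ± 0.386. The proton pump and the membrane proteins thus took a smaller share of a larger total, although their own summed TPM was higher after bleomycin.

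**Figure D1:**
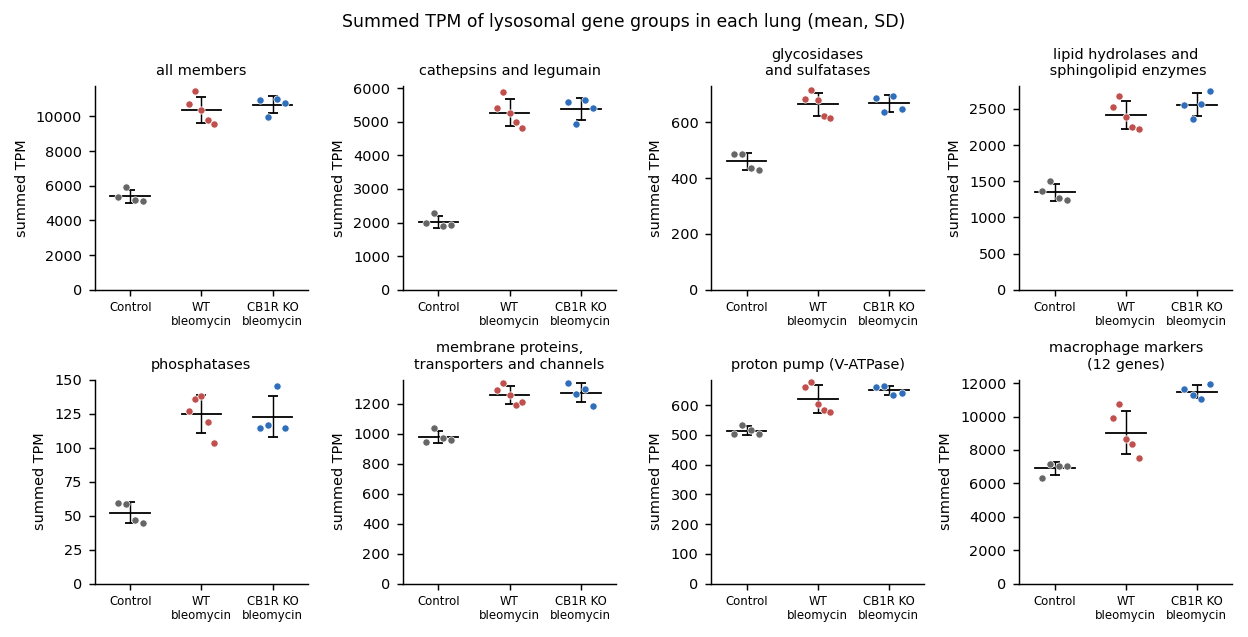
Summed TPM (y axis) of all 50 lysosomal genes, of 6 role groups and of 12 macrophage marker genes in each library (points), by group (x axis), with the group mean as a horizontal line and 1 SD as the bar. Protease sums went from a control mean of 2024 to 5275 in WT and 5388 in CB1R KO bleomycin lungs, while proton pump sums went from 514 to 620.4 and 650.3.

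The first comparison asked which lysosomal genes were changed by bleomycin in wild-type lungs. A gene is called changed where the quasi-likelihood test of edgeR gave an adjusted p under 0.05 (Benjamini-Hochberg, over 15315 genes), and log2 fold changes are given ± the standard error of that fit. Of the 50 genes, 37 rose, 5 fell (Ctso, Ctsf, Ids, Idua and Sgsh) and 8 did not pass. Over all genes tested, 25% rose and 23.9% fell. The median log2 fold change was 0.41 over the 50 genes and -0.01 over all genes tested. All 5 WT libraries were above all 4 control libraries for 35 of the 50 genes (21.5% of all genes tested) and below them for 3 (18.8%). Of the 37 genes that rose, 10 did so by a log2 fold change of at least 1, and 14 by less than 0.5.

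Most cathepsins rose, and the 2 largest rises, of Ctss and Ctsk, were among them: 11 of 13 proteases rose and 2 fell, with a median log2 fold change of 1.04. Ctss, a cysteine protease of antigen-presenting cells that trims the invariant chain of MHC class II, had the largest rise of the 50. Levels of 1 gene across libraries are given as CPM, the estimated count scaled to the size of the library after TMM normalization, in the order of control replicates 3, 21, 24 and 26, WT replicates 4, 2, 5, 4-B2 and 7, and CB1R KO replicates 8, 9, 10 and 11. Ctss was at 200.1, 247, 173 and 161 CPM in control, 925, 934, 851, 883 and 842 CPM in WT bleomycin and 943, 746, 964 and 899 CPM in CB1R KO bleomycin lungs. Every bleomycin library was above every control library, and the rise was 4.54-fold in WT (log2 fold change 2.18 ± 0.12, edgeR adjusted p = 2.59e-08).

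Ctsk, a collagen-degrading cathepsin known from osteoclasts, was at 21.8, 51.4, 22.9 and 23.6 CPM in control, 122, 178, 127, 115 and 99.3 CPM in WT bleomycin and 122, 112, 109 and 102 CPM in CB1R KO bleomycin lungs. Control replicate 21 stood above the other 3 controls, and all controls were below all bleomycin libraries. The log2 fold change in WT was 2.10 ± 0.24 (edgeR adjusted p = 7.39e-06), and 2.49 without control replicate 21. That library had the highest control CPM for 33 of the 50 genes, and the same share over all genes tested was not computed. Its summed TPM of 10 alveolar macrophage markers was 2343, against 989 to 1042 in the other controls. The macrophage markers given below, without Lyz2, summed to 405 TPM in it, against 327 to 333 TPM in the other controls. The part of these cells in its lysosomal levels was not tested.

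Ctsd, the main aspartic protease of lysosomes, was at 608, 771, 581 and 645 CPM in control, 1902, 2189.9, 1836, 1835 and 1561 CPM in WT bleomycin and 2131, 1988, 2164 and 2419.5 CPM in CB1R KO bleomycin lungs. The controls did not overlap the bleomycin libraries, and the rise in WT was 2.86-fold (log2 fold change 1.52 ± 0.11, edgeR adjusted p = 1.38e-07). Ctsh, an aminopeptidase that also takes part in surfactant protein B maturation in type II cells, was at 166, 193, 200.2 and 234 CPM in control, 517, 515, 593, 637 and 576 CPM in WT bleomycin and 446, 429, 519 and 284 CPM in CB1R KO bleomycin lungs. The rise of Ctsh in WT was 2.87-fold (log2 fold change 1.52 ± 0.15, edgeR adjusted p = 1.81e-06), and CB1R KO replicate 11 was the lowest of all bleomycin libraries, though above the controls. Lgmn, the asparaginyl endopeptidase that cleaves several cathepsins to their 2-chain forms, was at 133, 155, 135 and 122 CPM in control, 346, 398, 367, 374 and 393 CPM in WT bleomycin and 319, 276, 339.7 and 369 CPM in CB1R KO bleomycin lungs. Again no control reached a bleomycin library (2.76-fold in WT, log2 fold change 1.46 ± 0.089, edgeR adjusted p = 5.81e-08).

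Among the other proteases, Ctsb, an abundant cysteine protease, rose by 1.25 on the log2 scale in WT lungs, and Ctsz, a carboxypeptidase, by 1.04. Ctsa, the protective protein that keeps Neu1 and Glb1 stable, rose by 0.72, and Ctsc, the dipeptidyl peptidase that activates granule serine proteases, by 0.69. Ctsl rose less, by 0.45. Its levels were 192, 228, 213 and 219 CPM in control, 286, 307, 287, 291 and 287 CPM in WT bleomycin and 317, 260.2, 269 and 269.6 CPM in CB1R KO bleomycin lungs, again without overlap between control and bleomycin libraries (edgeR adjusted p = 7.85e-05). Tpp1, which removes tripeptides and is mutated in a childhood neuronal ceroid lipofuscinosis, rose by 0.37.

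Ctso and Ctsf were the 2 proteases that fell. Ctso was at 76.5, 80.6, 79.1 and 78.1 CPM in control, 66.1, 65.8, 60.0, 52.9 and 66.5 CPM in WT bleomycin and 75.3, 69.4, 62.1 and 69.1 CPM in CB1R KO bleomycin lungs. All bleomycin libraries were below the lowest control (log2 fold change in WT -0.33 ± 0.073, edgeR adjusted p = 0.00173). Ctsf, at 19.4 to 28.0 CPM in control and 19.2 to 22.4 CPM in WT bleomycin lungs, overlapped between the groups, with control replicate 3 at 19.4 CPM the lowest control. Its log2 fold change of -0.27 ± 0.11 lay at the threshold (edgeR adjusted p = 0.049), and the call was lost when any one of control replicates 21, 24 and 26 or of the 9 bleomycin libraries was left out, with log2 fold changes of -0.38 to -0.22 over all 13 omissions.

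**Figure D2:**
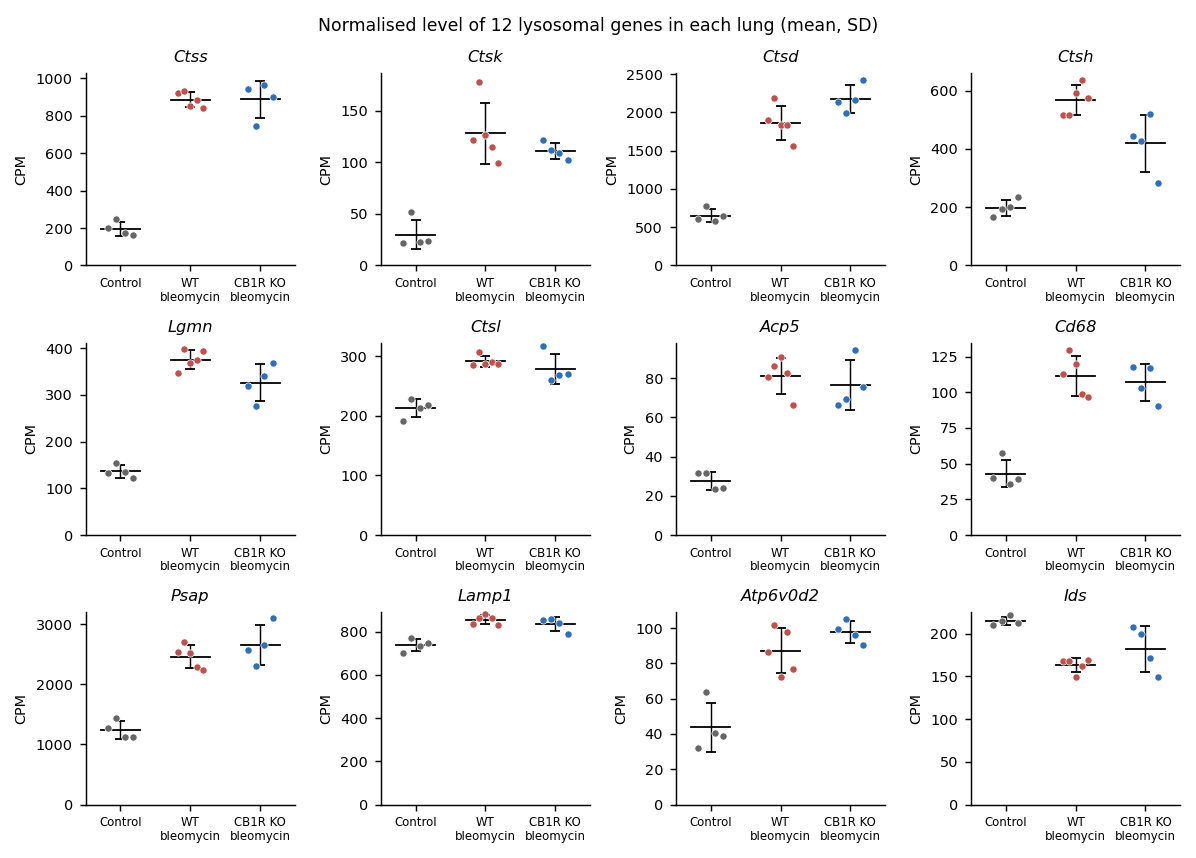
Normalised level (CPM, y axis from 0) of 12 lysosomal genes in each library (points) by group (x axis), with the group mean as a line and 1 SD as the bar. Ctss, Ctsk, Ctsd, Ctsh, Lgmn, Ctsl, Acp5, Cd68, Psap, Lamp1 and Atp6v0d2 are higher in every bleomycin library than in every control library, and Ids is lower in all of them.

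Of the 13 glycosidases, sulfatases and their activator, 9 rose in WT lungs and 3 fell, with a median log2 fold change of 0.51. The enzymes that rose include Gusb, the β-glucuronidase, by 1.04 on the log2 scale, Hexa, the α-subunit of β-hexosaminidase, by 0.87, and Gla, the α-galactosidase missing in Fabry disease, by 0.85. Naglu rose by 0.78, the α-mannosidase Man2b1 by 0.74, the β-galactosidase Glb1 by 0.54, the sialidase Neu1 by 0.51, the ganglioside activator Gm2a by 0.51 and the β-mannosidase Manba by 0.39. Gaa, which degrades glycogen, did not pass (log2 fold change 0.09 ± 0.051, edgeR adjusted p = 0.156).

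The 3 that fell, Ids, Idua and Sgsh, all act on heparan sulfate, as does Naglu, which rose. Ids, the iduronate sulfatase, was at 210.2, 214, 221 and 213 CPM in control, 168, 167, 149.7, 162 and 169 CPM in WT bleomycin and 208, 199.9, 171 and 149.6 CPM in CB1R KO bleomycin lungs. The WT libraries were all below the controls (log2 fold change -0.39 ± 0.082, edgeR adjusted p = 0.00118), and CB1R KO replicates 8 and 9 came close to them. Idua, the iduronidase, was at 25.0, 24.6, 27.2 and 29.6 CPM in control, 22.2, 20.9, 23.1, 18.6 and 17.6 CPM in WT bleomycin and 29.0, 25.4, 22.0 and 17.4 CPM in CB1R KO bleomycin lungs. WT libraries were again all below the controls, while CB1R KO libraries spanned nearly the whole range of both. The log2 fold change in WT was -0.38 (edgeR adjusted p = 0.0285) and no longer passed when control replicate 24 or 26 or WT replicate 4-B2 or 7 was left out (-0.42 to -0.32 over all 13 omissions). Sgsh, the sulfamidase, was at 50.3, 52.2, 47.8 and 39.4 CPM in control, 35.2, 38.2, 39.9, 32.3 and 38.6 CPM in WT bleomycin and 41.0, 37.8, 39.4 and 38.6 CPM in CB1R KO bleomycin lungs. Control replicate 26 was below WT replicate 5, and the log2 fold change was -0.37 ± 0.084 (edgeR adjusted p = 0.00247).

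Among the 7 lipid enzymes and carriers, 5 rose and none fell in WT lungs, with a median log2 fold change of 0.38. Psap, the precursor of the saposins that present sphingolipids to their hydrolases, was the most abundant of the 50 genes by TPM in 8 libraries, and Ctsd in the other 5. Psap was at 1276, 1430.3, 1122 and 1128 CPM in control, 2535, 2698, 2520.3, 2290.2 and 2231 CPM in WT bleomycin and 2563, 2297, 2652 and 3095 CPM in CB1R KO bleomycin lungs. No control overlapped a bleomycin library (1.98-fold in WT, log2 fold change 0.99 ± 0.10, edgeR adjusted p = 2.95e-06). Lipa, the acid lipase, rose by 0.92 on the log2 scale, the cholesterol carrier Npc2 by 0.71, the ceramidase Asah1 by 0.38 and the sphingomyelinase Smpd1 by 0.23. Npc1, the membrane partner of Npc2, had a log2 fold change of 0.13 ± 0.08 (edgeR adjusted p = 0.21), and Ppt1, a palmitoyl-protein thioesterase, of 0.11 ± 0.056 (edgeR adjusted p = 0.105); neither passed.

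Both acid phosphatases rose, by unequal amounts. Acp5, the tartrate-resistant phosphatase of osteoclasts and activated macrophages, was at 31.7, 31.6, 23.5 and 23.8 CPM in control, 80.6, 86.0, 90.5, 82.6 and 66.1 CPM in WT bleomycin and 66.5, 69.4, 94.4 and 75.3 CPM in CB1R KO bleomycin lungs (WT against control 2.93-fold, log2 fold change 1.55 ± 0.13, edgeR adjusted p = 5.46e-07). Acp2, the broadly expressed lysosomal phosphatase, was at 57.8, 63.4, 57.4 and 58.1 CPM in control, 70.9, 80.5, 75.6, 71.7 and 71.0 CPM in WT bleomycin and 75.3, 71.3, 74.4 and 71.7 CPM in CB1R KO bleomycin lungs (log2 fold change in WT 0.32 ± 0.056, edgeR adjusted p = 0.000307). Neither gene overlapped between control and bleomycin libraries.

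Of the 7 membrane proteins, 4 rose and none fell in WT lungs, with a median log2 fold change of 0.21. Cd68, a glycoprotein of macrophage endosomes and lysosomes, was at 39.6, 57.5, 36.0 and 39.1 CPM in control, 113, 129.8, 119, 98.8 and 96.8 CPM in WT bleomycin and 118, 103, 117 and 90.0 CPM in CB1R KO bleomycin lungs. Its rise of 2.59-fold in WT (log2 fold change 1.37 ± 0.14, edgeR adjusted p = 2.4e-06) stood beside a small one of Lamp1, a main structural protein of the lysosomal membrane in all cells. Lamp1 was at 703, 772, 731 and 746 CPM in control, 834, 864, 881, 863 and 832 CPM in WT bleomycin and 856, 857, 841 and 788 CPM in CB1R KO bleomycin lungs. Lamp1 libraries of control and bleomycin lungs did not overlap, with a log2 fold change of 0.21 ± 0.054 in WT (edgeR adjusted p = 0.00476). Lamp2, which also serves chaperone-mediated autophagy, rose by 0.43 on the log2 scale, and Scarb2, the receptor that carries glucocerebrosidase to lysosomes, by 0.32. The calcium channel Mcoln1 (log2 fold change -0.14 ± 0.065, edgeR adjusted p = 0.0872), the cystine exporter Ctns (-0.14 ± 0.11, 0.301) and Cln3 (-0.10 ± 0.10, 0.408) did not pass. On the TPM scale Mcoln1 did not overlap, at 51.4 to 60.5 TPM in control and 43.1 to 50.8 TPM in WT bleomycin lungs. There limma called it lower (-0.28, limma adjusted p = 0.0215).

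Of the 7 proton pump genes, 6 rose and none fell in WT lungs, with a median log2 fold change of 0.27. Atp6v0d2, a form of the pump's d subunit found in osteoclasts, macrophages and few other cells, was at 32.3, 64.0, 40.7 and 38.7 CPM in control, 86.7, 102, 72.3, 97.6 and 77.0 CPM in WT bleomycin and 99.6, 105.2, 96.2 and 90.2 CPM in CB1R KO bleomycin lungs. Control replicate 21 came nearest to the bleomycin libraries without reaching them (WT against control 1.98-fold, log2 fold change 0.99 ± 0.16, edgeR adjusted p = 0.000178). Atp6v0d1, the ubiquitous d subunit, was at 88.7, 94.1, 92.6 and 91.6 CPM in control, 111, 114, 114, 116 and 113 CPM in WT bleomycin and 109, 109.9, 113 and 114 CPM in CB1R KO bleomycin lungs (log2 fold change in WT 0.31 ± 0.044, edgeR adjusted p = 5.01e-05). The catalytic subunit Atp6v1a rose by 0.27 on the log2 scale and Atp6v1b2 by 0.31. Smaller rises of 0.19 for Atp6v1h and 0.18 for Atp6v0a1 depended on single libraries: Atp6v1h lost its call without control replicate 3 or 26 or WT replicate 2 or 4-B2 (0.14 to 0.22 over all omissions), and Atp6v0a1 without control replicate 24 or 26 or WT replicate 4 or 4-B2 (0.15 to 0.21). The accessory protein Atp6ap1 was at 0.019 ± 0.055 (edgeR adjusted p = 0.8).

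Tfeb, the transcription factor of the list, did not pass in any of the 3 comparisons. It was at 34.8, 39.9, 34.6 and 37.2 CPM in control, 30.2, 32.8, 33.2, 31.8 and 37.6 CPM in WT bleomycin and 34.0, 28.8, 32.5 and 31.8 CPM in CB1R KO bleomycin lungs. WT and control libraries overlapped (log2 fold change -0.14 ± 0.077, edgeR adjusted p = 0.133), and without WT replicate 7 the value of -0.19 passed (edgeR adjusted p = 0.048). In CB1R KO lungs the log2 fold change of Tfeb was -0.21 ± 0.08 (edgeR adjusted p = 0.0604), which passed without WT replicate 7 (-0.20) or CB1R KO replicate 8 (-0.23), or after upper-quartile normalization (-0.22). Among the 43 genes with a promoter window, the median log2 fold change in WT was 0.31 over the 15 with an E-box, of which 10 rose, and 0.47 over the 28 without, of which 21 rose.

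The levels of paired genes were set against each other within each library, as TPM ratios, which do not depend on scaling between libraries. Both genes of each pair are among those given above, so a ratio restates their unequal rises and is not separate evidence. The ratio of Atp6v0d2 to Atp6v0d1 was 0.223 to 0.416 in control, 0.393 to 0.547 in WT bleomycin and 0.487 to 0.584 in CB1R KO bleomycin lungs. The log2 ratio was higher by 0.72 in WT bleomycin than in control, where control replicate 21 overlapped with WT replicate 5 (exact permutation test, two-sided, p = 0.0317, adjusted p = 0.0476 over 9 tests). The ratio of Ctsk to Ctsl was 0.117 to 0.260 in control, 0.412 to 0.665 in WT bleomycin and 0.384 to 0.488 in CB1R KO bleomycin lungs, and its log2 value was higher by 1.73 in WT bleomycin (exact permutation test, p = 0.0159, adjusted p = 0.0476). The ratio of Acp5 to Acp2 was 1.42 to 1.80 in control, 3.11 to 4.22 in WT bleomycin and 2.71 to 4.22 in CB1R KO bleomycin lungs, and its log2 value was higher by 1.15 in WT bleomycin (exact permutation test, p = 0.0159, adjusted p = 0.0476). With 4 and 5 libraries 0.0159 is the smallest p this test can give.

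CB1R KO bleomycin lungs, which share the control libraries with the comparison above, had log2 ratios above control by 0.93, 1.58 and 1.03 for the pairs in the same order (exact permutation test, p = 0.0286 and adjusted p = 0.0476 for each, the smallest p that 4 against 4 allows being 0.0286). Between CB1R KO and WT bleomycin lungs the differences were 0.21 for Atp6v0d2 to Atp6v0d1 (exact permutation test, adjusted p = 0.143), -0.15 for Ctsk to Ctsl (adjusted p = 0.429) and -0.12 for Acp5 to Acp2 (adjusted p = 0.508). None of these 3 passed.

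**Figure D3:**
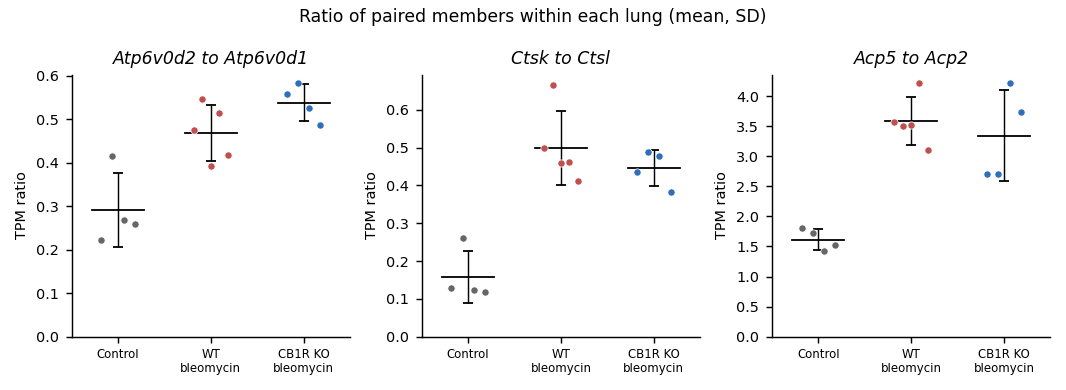
TPM ratio (y axis from 0) of Atp6v0d2 to Atp6v0d1, Ctsk to Ctsl and Acp5 to Acp2 in each library (points) by group (x axis), with mean and SD. Ctsk to Ctsl and Acp5 to Acp2 are higher in every bleomycin library than in every control library, while control replicate 21 at 0.416 reaches into the WT range for Atp6v0d2 to Atp6v0d1.

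The second comparison asked whether the lysosomal genes differed between CB1R KO and WT lungs after bleomycin. None of the 50 genes passed in either direction with edgeR, and DESeq2 and limma also called 0. With edgeR, 0.359% of all genes tested were higher and 0.62% lower in CB1R KO lungs. DESeq2 on all libraries called 270 higher and 370 lower of 15602 genes, and limma on log2(TPM + 1) called 37 and 72 of 15315. At an unadjusted p under 0.05, 2 genes were higher (Ctsd and Ppt1; 7.95% of all genes tested) and 3 lower (Ctsh, Lgmn and Man2b1; 9.08%). No gene of the 50 had all CB1R KO libraries above or below all WT libraries, which was so for 2.5% and 3.1% of all genes tested. The median log2 fold change was -0.0084 over the 50 genes, with 24 above and 26 below 0.

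The precision of this comparison can be read from its intervals. The 95% interval of the log2 fold change lay wholly within ±0.25 for 26 genes and within ±0.5 for 47. The lowest bound over the 50 was -0.74 and the highest 0.50, and 45 intervals held 0. Intervals that reached beyond ±0.5 were those of Ctsh (-0.74 to -0.13), Ctsk (-0.68 to 0.26) and, at its upper bound of 0.50, Atp6v0d2. A gene that did not pass is thus not shown to be equal in the bleomycin groups, and its 95% interval gives the differences that these libraries allow.

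Ctsh had the lowest p of the 50. CB1R KO lungs had a log2 fold change over WT lungs of -0.44 ± 0.14 (unadjusted p = 0.00782, edgeR adjusted p = 0.144). WT libraries were at 515 to 637 CPM. CB1R KO replicates 8, 9 and 11 were below that range, and replicate 10, at 519 CPM, was within it. Without CB1R KO replicate 10 the difference was -0.55 and passed (edgeR adjusted p = 0.0464), and without replicate 11, the lowest at 284 CPM and the most deeply sequenced library, it was -0.29 (edgeR adjusted p = 0.198). Calls over all genes tested without replicate 10 were 263 higher and 390 lower of 15417, against 55 and 95 of 15315 with every library. Replicate 11 also had the lowest summed TPM of 7 mitochondrial transcripts, 21149 against 42470 to 45910 in the other CB1R KO libraries; the part of RNA quality or depth in its Ctsh level was not tested, and thinning its counts to 16051219 left the difference at -0.43.

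For Lgmn the CB1R KO libraries at 276 to 369 CPM overlapped with the WT libraries at 346 to 398 CPM (log2 fold change -0.20 ± 0.085, 95% interval -0.39 to -0.021, edgeR adjusted p = 0.241). Man2b1 was at 179.8, 173, 147 and 157 CPM in control, 268, 291, 289, 264 and 253 CPM in WT bleomycin and 247, 219, 261 and 245 CPM in CB1R KO bleomycin lungs, with 3 of 4 CB1R KO libraries below the lowest WT library (-0.17 ± 0.073, 95% interval -0.32 to -0.014, edgeR adjusted p = 0.252). In the other direction, Ctsd had 1 WT library, replicate 2, above 3 of the 4 CB1R KO libraries (0.22 ± 0.10, 95% interval 0.0035 to 0.44, edgeR adjusted p = 0.287).

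Ppt1 was at 99.8, 97.9, 93.8 and 89.6 CPM in control, 108, 107, 98.9, 103 and 98.5 CPM in WT bleomycin and 115, 106, 119 and 110.4 CPM in CB1R KO bleomycin lungs, with 3 of 4 CB1R KO libraries above the highest WT library (0.13 ± 0.055, 95% interval 0.0098 to 0.25, edgeR adjusted p = 0.255). Npc1 was at 149, 148, 134 and 146 CPM in control, 162, 176, 172, 139 and 136 CPM in WT bleomycin and 179.7, 189, 166 and 169 CPM in CB1R KO bleomycin lungs, with WT replicates 4-B2 and 7 at the control level and the other WT libraries above it (CB1R KO over WT 0.16 ± 0.08, 95% interval -0.0077 to 0.33, edgeR adjusted p = 0.318). Those 2 WT libraries and control replicate 26 are spelled with capitals in the labels, and without these 3 the log2 fold change of Npc1 in WT over control was 0.25 (edgeR adjusted p = 0.0207). Ctss, the gene with the largest rise over control, had a log2 fold change of 0.0014 between the bleomycin groups, with a 95% interval of -0.23 to 0.24.

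**Figure D4:**
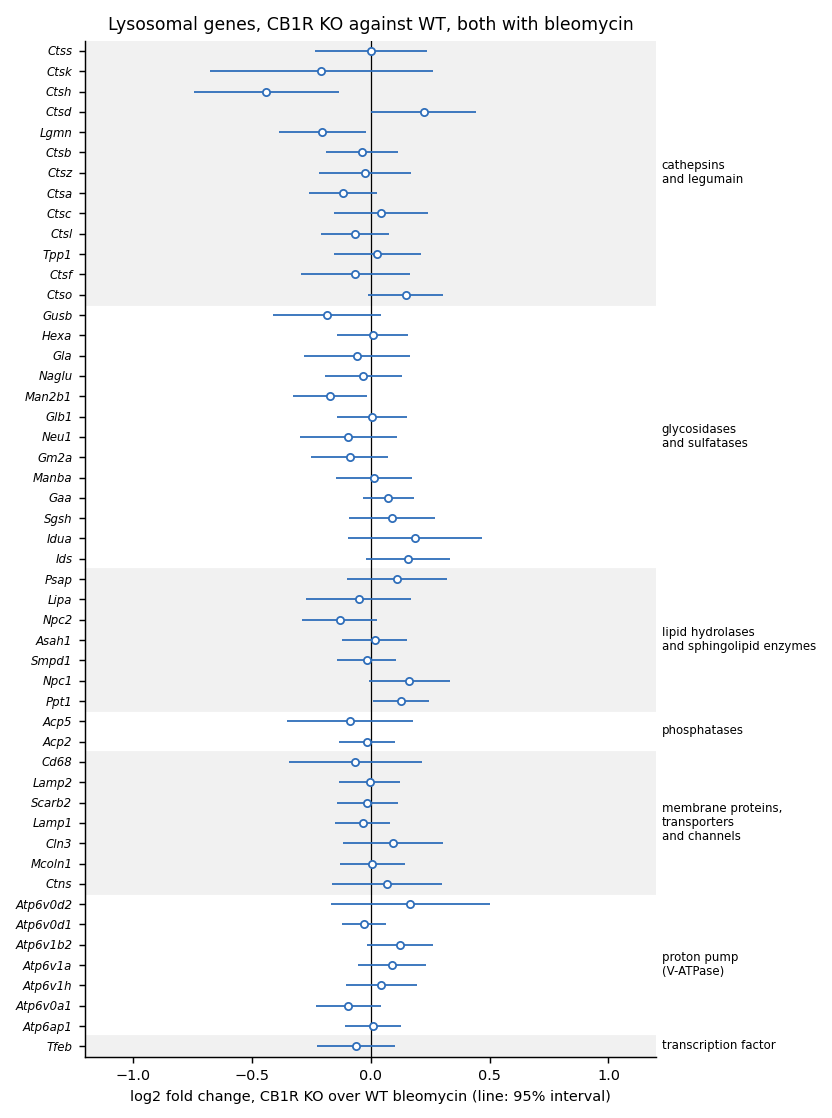
Log2 fold change (x axis) of CB1R KO over WT bleomycin lungs for each of the 50 lysosomal genes (y axis, grouped by role in grey and white bands), with the 95% interval as a line. All points are open because none passed, and 45 of the 50 intervals hold 0.

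The third comparison set CB1R KO bleomycin lungs against the same control libraries. Of the 50 genes, 39 rose, 3 fell (Ctsf, Ids and Sgsh) and 8 did not pass, where 19% of all genes tested rose and 16.3% fell. The median log2 fold change was 0.41. All CB1R KO libraries were above all controls for 37 genes (17.7% of all genes tested) and below them for 4 (15.8%). By role, 11 of 13 proteases, 10 of 13 glycosidases and sulfatases, 7 of 7 lipid genes, both phosphatases, 4 of 7 membrane proteins and 5 of 7 proton pump genes rose.

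Side by side, the log2 fold changes against control in WT and in CB1R KO lungs were 2.18 and 2.19 for Ctss, 2.10 and 1.89 for Ctsk, 1.52 and 1.74 for Ctsd, and 1.52 and 1.08 for Ctsh. They were 1.55 and 1.46 for Acp5, 1.37 and 1.31 for Cd68, and 0.99 and 1.10 for Psap. Gaa (0.16, edgeR adjusted p = 0.0259), Npc1 (0.29, 0.016) and Ppt1 (0.24, 0.00539) rose in CB1R KO lungs and did not pass in WT lungs. Atp6v0a1, Ctso and Idua passed in WT lungs and not in CB1R KO lungs. None of these 6 genes passed in the direct comparison of the bleomycin groups, so none was shown to respond differently. Ids in CB1R KO lungs (-0.24, edgeR adjusted p = 0.046) lost its call when any one of the 4 controls, the 5 WT libraries or CB1R KO replicates 10 and 11 was left out, with values of -0.30 to -0.14 over all omissions. Ctsf and Sgsh, the other 2 that fell, lost their calls without any one of 6 libraries each (-0.44 to -0.28 and -0.36 to -0.23 over all omissions): control replicates 21, 24 and 26 and CB1R KO replicates 8, 9 and 10 for Ctsf, and control replicates 3, 21 and 24 and CB1R KO replicates 9, 10 and 11 for Sgsh. Among the small rises, those of Lamp1 (0.16 to 0.21; lost without control replicate 3, 24 or 26 or CB1R KO replicate 8 or 9), Gaa (0.13 to 0.20; control replicate 24 or 26 or CB1R KO replicate 8), Atp6v1h (0.19 to 0.27; control replicate 3 or CB1R KO replicate 11), Npc1 (0.25 to 0.32; control replicate 24) and Smpd1 (0.19 to 0.27; control replicate 21 or 24) also rested on single libraries.

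**Figure D5:**
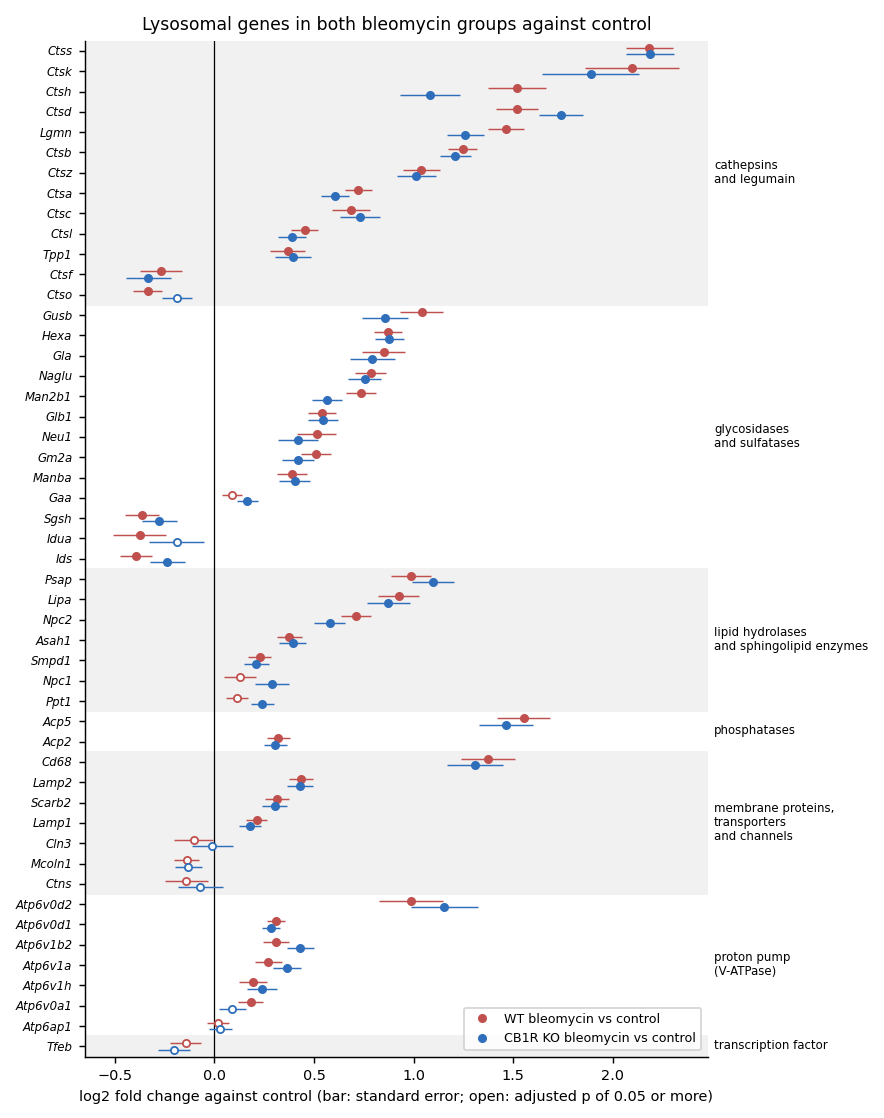
Log2 fold change against control (x axis) of the 50 lysosomal genes (y axis, grouped by role) in WT bleomycin lungs (red) and CB1R KO bleomycin lungs (blue), with the standard error as a bar, and with open points where the adjusted p was 0.05 or more. Both groups share the 4 control libraries; in each, Ctss at 2.18 and 2.19 lies farthest to the right.

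By abundance, Psap led in control lungs at 708 ± 90.3 TPM (SD, n = 4), followed by Lamp1 at 507 ± 15.6 and Ctsd at 472 ± 59.5 TPM. Psap and Lamp1 differed by more than their spread, while the control ranges of Lamp1 and Ctsd overlapped. In WT bleomycin lungs Psap at 1443 ± 149 and Ctsd at 1389 ± 197 TPM (n = 5) were within each other's spread, followed by Ctss at 1099 ± 81.4 and Ctsh at 744 ± 64.7 TPM. In CB1R KO bleomycin lungs Ctsd at 1662 ± 125 and Psap at 1599 ± 191 TPM (n = 4) were again within their spread, followed by Ctss at 1127 ± 132 and Lamp1 at 605 ± 30.3 TPM. The mean level of the 50 genes ran from 6.43 TPM (Gla) to 708 TPM in control and from 9.49 TPM (Idua) to 1443 TPM in WT bleomycin lungs.

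Further lysosomal genes outside the 50 moved in both directions. Their counts stand beside 25% of all genes tested that rose and 23.9% that fell in WT bleomycin against control. Of 28 other hydrolases tested, 17 rose and 2 fell in WT bleomycin against control, with the lowest p among those that fell at the hyaluronidase Hyal1 (-1.02 ± 0.16). Of 16 other proton pump genes, 11 rose and 3 fell, with the lowest p at Atp6v0c, the proteolipid ring subunit (0.68 ± 0.069), and Atp6v1c2, a C subunit form of few tissues (-1.27 ± 0.13). Of 27 other membrane proteins and sorting receptors, 10 rose, led by the tetraspanin Cd63 (1.23 ± 0.093), and 8 fell, led by Mfsd8 (-0.50 ± 0.086).

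Of 17 genes of the TFEB family and of nutrient sensing at the lysosome, 11 rose and 3 fell, with the lowest p at Tfec (1.52 ± 0.22), a family member of myeloid cells, and at Flcn (-0.44 ± 0.09), which controls the family through Rag GTPases. Of 4 genes tested from the cystatin family, which includes cathepsin inhibitors, 2 rose and 2 fell, led by Cstb (1.26 ± 0.081) and Cst8 (-3.22 ± 0.35). Between CB1R KO and WT bleomycin lungs none of the genes in these 5 lists passed with edgeR, and the lowest p in the sensing list was at Rragd (0.37 ± 0.10, adjusted p = 0.0955) and Tfe3 (-0.16 ± 0.063, adjusted p = 0.204). At an unadjusted p under 0.05 the 5 lists held 9 higher and 6 lower genes of 92. Over all genes tested these shares were 7.95% and 9.08%.

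Cell markers also changed, in directions that differed between the cell types. Against control, 25% of all genes tested rose and 23.9% fell in WT, and 19% rose and 16.3% fell in CB1R KO bleomycin lungs. Of 12 macrophage markers, 10 rose and 1 fell in WT bleomycin against control (median log2 fold change 1.56), and 11 rose and 1 fell in CB1R KO bleomycin against control. None passed between CB1R KO and WT bleomycin lungs, where their median was -0.22 and 9 of 12 lay below 0. Adgre1, which encodes F4/80, was at 17.6 to 20.1 TPM in control, 29.0 to 60.0 TPM in WT bleomycin and 39.3 to 50.9 TPM in CB1R KO bleomycin lungs, and Csf1r at 67.0 to 85.9, 88.8 to 121 and 87.9 to 116 TPM. The summed TPM of the 12 markers was 6333 to 7164 in control, 7515 to 10742 in WT and 11057 to 11938 in CB1R KO bleomycin lungs. Most of that sum was Lyz2, a gene singled out after its values were seen, which type II cells also express. The other 11 markers summed to 327 to 405 TPM in control, 1413 to 1591 TPM in WT and 956 to 1560 TPM in CB1R KO bleomycin lungs. The part of macrophage number in the lysosomal differences was not tested.

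The 10 alveolar macrophage markers tested did not move together: 1 rose and 4 fell in WT bleomycin against control, and their summed TPM was 989 to 2343 in control, 972 to 1505 in WT and 988 to 1598 in CB1R KO bleomycin lungs. Of 8 type II cell markers, 6 fell in WT bleomycin against control and 3 were higher in CB1R KO than in WT bleomycin lungs, with Sftpc, which encodes surfactant protein C, at 25082 to 29120 TPM in control, 14306 to 17578 TPM in WT and 18717 to 29304 TPM in CB1R KO bleomycin lungs. Of 8 fibroblast markers, 5 rose and 1 fell in WT bleomycin against control, with Col1a1 at 35.9 to 75.8 TPM in control, 375 to 617 TPM in WT and 208 to 479 TPM in CB1R KO bleomycin lungs. No marker of these lists was at 0 in every library, and the part of these cells in the lysosomal levels was not tested.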

How the data were processed

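Poly(A)-selected RNA from the lower right lung lobe was sequenced as 2x150 bp read pairs. The authors quantified transcripts with kallisto (Ensembl release 105, GRCm39), summed protein-coding transcripts per gene, and deposited estimated counts and TPM values; 70.2% of the deposited estimated counts were not whole and were rounded here, as the study did for DESeq2. Values of the 13 single-sample files equalled the table columns within a relative tolerance of 1e-06. One TPM column that matched no sample label was not used. No pair of replicates agreed within sampling noise. Reads shared by near-identical genes were divided among them by kallisto.

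Libraries were grouped by their labels. Genes were filtered with filterByExpr, scaled by TMM and tested with edgeR 4.0.16 (glmQLFit and glmQLFTest, R 4.3.3) over all 13 libraries, with Benjamini-Hochberg adjustment over 15315 genes and a threshold of 0.05. The test was checked on simulated data with known changes, given here for WT against control, CB1R KO against WT, and CB1R KO against control. It called 42 of 100, 50 of 99 and 36 of 91 log2 changes of 0.5. For log2 changes of 1 it called 80 of 100, 89 of 101 and 93 of 109. Among 15115 unchanged genes it falsely called 4, 8 and 17. TPM ratios were compared by two-sided exact permutation tests in Python 3.11.15 with scipy 1.17.1, adjusted over 9 tests.

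The 50 genes, the other lysosomal lists and the marker lists were chosen with earlier results of these data known, and the promoter motifs and printed stretches after values were seen. Genes given for each library are the 6 largest rises and 4 largest falls in WT bleomycin against control, the 6 lowest p in CB1R KO against WT bleomycin, the 4 most abundant genes, and Ctsk, Ctsl, Ctss, Ctsd, Cd68, Lamp1, Acp5, Acp2, Atp6v0d1, Atp6v0d2 and Tfeb. In other lists the gene with the lowest p in each direction was named; 1 result is not reported here. Alternatives were no filter or a floor of 10 counts per library, scaling by RLE or by the upper quartile, DESeq2 1.42.0, limma 3.58.1 on log2(TPM + 1) and log2(TPM + 0.1), edgeR on 2 groups, the spelling of the labels as a covariate or restriction, thinning of CB1R KO replicate 11, and omission of each library; the ratios were also taken from estimated counts and with 0.1 TPM added.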

Additional observations from a re-analysis of the deposited data

Results flagged for a closer look

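In 11 of 150 sets of 1 gene in 1 group, a single library stood apart from the others by a gap that was large for the range of the group (the gap divided by the range is given as the gap share); chance alone gives about 1 in 20 such sets. In control lungs, replicate 21 was high for Ctsk (51.4 CPM against 21.8 to 23.6 CPM, gap share 0.940), Cd68 (57.5 against 36.0 to 39.6 CPM, 0.830) and Acp2 (63.4 against 57.4 to 58.1 CPM, 0.877). Control replicate 3 was low for Ctsf (19.4 against 27.2 to 28.0 CPM, 0.911) and Lamp2 (335 against 374 to 382 CPM, 0.837), control replicate 24 was low for Npc1 (134 against 146 to 149 CPM, 0.837), and control replicate 26 was high for Smpd1 (93.6 against 78.8 to 79.3 CPM, 0.970).

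In bleomycin lungs, WT replicate 2 was high for Ctsl (307 against 286 to 291 CPM, gap share 0.769), as was CB1R KO replicate 8 (317 against 260.2 to 269.6 CPM, 0.834). CB1R KO replicate 9 was low for Ctsb (977 against 1120.4 to 1137 CPM, 0.895), and CB1R KO replicate 11 was high for Atp6v1h (85.7 against 74.6 to 75.1 CPM, 0.952).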

How the results depend on the processing

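Over 25 alternatives, 35 of the 37 genes that rose in WT bleomycin against control were called under every one (not Atp6v0a1 and Atp6v1h), as were 3 of the 5 that fell (not Ctsf and Idua). In CB1R KO bleomycin against control 34 of 39 rises were called under every one, and 0 of 3 falls. The count of genes that fell in WT was 3 with lower-case labels alone and 3 to 5 with 1 library left out. Falls in WT over all genes tested numbered 3658 in the fit given above. They numbered 2681 with lower-case labels alone and 3234 to 3726 with 1 library left out. Mcoln1, not called in WT with edgeR, was called lower with limma at either pseudocount (-0.28, limma adjusted p = 0.0215 for each). The 3 falls in CB1R KO became 5 with upper-quartile normalization, 0 with limma at either pseudocount, 1 with edgeR on 2 groups, 1 with the spelling covariate, 1 with lower-case labels alone, and 0 to 4 with 1 library left out. Falls in CB1R KO over all genes tested went from 2504 to 2722 with upper-quartile normalization and to 1506 and 1450 with limma. They were 2238 with edgeR on 2 groups, 2435 with the covariate, 2085 with lower-case labels alone and 1835 to 2474 with 1 library left out. Between CB1R KO and WT bleomycin, 0 to 1 gene was lower with 1 library left out (Ctsh, without CB1R KO replicate 10). Without that replicate 390 of all 15417 genes tested were lower, against 95 of 15315 with every library. The cause was not tested.

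The log2 ratios in WT and CB1R KO against control with lower-case labels alone were 0.68 and 0.88 for Atp6v0d2 to Atp6v0d1, 1.73 and 1.46 for Ctsk to Ctsl, and 1.11 and 1.001 for Acp5 to Acp2. With 1 library left out they were 0.60 to 0.90 and 0.81 to 1.11, 1.61 to 2.00 and 1.46 to 1.85, and 1.09 to 1.21 and 0.91 to 1.12. None passed in these smaller sets, except all 3 WT ratios without WT replicate 5; fewer libraries raise the smallest p.

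Between CB1R KO and WT bleomycin the alternatives were followed for single values of 16 of the 50 genes. Values near 0 that changed sign there, all without a call, were those of Ctsl (0.0064 and 0.0064 with limma at each pseudocount), Lamp1 (0.0067, 0.0067), Tfeb (0.0067, 0.0070), Atp6v0d1 (0.012, 0.012), Acp2 (0.066, 0.068; -0.030 to 0.017 with 1 library left out), Cd68 (-0.11 to 0.015) and Ctss (-0.0028 with upper-quartile normalization, -0.069 with the covariate, -0.026 with lower-case labels alone, -0.039 to 0.077). In CB1R KO against control they were Cln3 (0.066, 0.068, 0.0022 with lower-case labels alone, 0.013 with replicate 11 thinned, -0.067 to 0.059) and Ctns (0.0065, 0.0066), and in WT against control Atp6ap1 (-0.0067 to 0.049).

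No paired analysis was possible because the groups share no replicate numbers. The label spelling separates 3 libraries (control replicate 26 and WT replicates 4-B2 and 7) from the other 10, all CB1R KO libraries among them. Thinning CB1R KO replicate 11, the deepest library, to 16051219 counts changed no call of the 50 genes.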

Other observations

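Markers of other cell types that bulk lung holds moved as follows. Shares of all genes tested that rose and fell against control were 25% and 23.9% in WT and 19% and 16.3% in CB1R KO. Of 7 neutrophil markers, 4 fell in WT and 5 in CB1R KO bleomycin against control, with a summed level of 308 to 1685 TPM in control, 210.1 to 411 TPM in WT and 246 to 537 TPM in CB1R KO bleomycin lungs. Of 7 T and B cell markers, 4 fell in WT and 3 in CB1R KO bleomycin against control. Of 7 monocyte markers, 3 rose and 2 fell in each bleomycin group against control. Of 7 dendritic cell markers, 3 rose in each, while 2 fell in WT and 1 in CB1R KO. Of 6 endothelial markers, 1 rose in each, 5 fell in WT and 4 in CB1R KO, and 1 was higher in CB1R KO than in WT bleomycin lungs. None of the 7 mitochondrial transcripts passed with edgeR in any of the 3 comparisons. Between CB1R KO and WT bleomycin lungs no neutrophil, T and B cell, monocyte or dendritic cell marker passed.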
